A study of Mus musculus with 2 samples.

Results

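A set of 7 genes typical of regulatory T cells, namely Foxp3, Ikzf2, Ikzf4, Nrp1, Lrrc32, Gpr83 and Ebi3, was followed in RNA sequencing of Th1 cultures, to ask whether regulatory cells are seen in either culture. They were chosen by symbol, and all 7 were found among the 24421 genes of each table. The cells came from wild type (WT, Chi3l1+/+) mice and from Chi3l1 knockout (KO, Chi3l1-/-) mice, which lack chitinase 3-like 1 in the whole body, all on the C57BL/6J background and 6 to 8 weeks old. Naïve CD4 T cells were isolated as CD25-negative and CD62L-positive, which depletes cells that carry CD25, as most regulatory cells do. Kit isolation and flow sorting are both described, with purities short of complete, and the route behind these libraries is not stated. The part of carried-over cells was not tested. The naïve cells were stimulated through CD3 and CD28 with antibodies fixed to the plate. They were skewed with IL-12, IL-2 and an antibody against IL-4, for 3 or 5 days in the study. No TGF-β was part of this condition. Each genotype has 1 library (n = 1), and the number of mice behind a library was not given in the sources used here. So no difference below has a replicate check, and no test between genotypes was possible. The targeted gene, checked in both libraries, went against the labels, since Chi3l1, listed as Chil1, had 1 read in the library labelled WT Th1 and 103 reads in the library labelled KO Th1, a log2 fold change of 5.71 (counting interval 4.17 to 12). The libraries are therefore called by their labels throughout, and each direction below rests on those labels. Why the reads of the targeted gene run this way was not tested.

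Regulatory T cells are CD4 T cells that restrain other immune cells. Their identity rests on the transcription factor FOXP3, which is made stably in cells from the thymus and can also be induced in the periphery by antigen and TGF-β. Activated conventional T cells can make some of these gene products for a time, so that no single gene here marks a regulatory cell by itself. The 7 genes fall into nuclear factors (Foxp3, Ikzf2 and Ikzf4), surface molecules (Nrp1, Lrrc32 and Gpr83) and a secreted cytokine chain (Ebi3).

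The start regions of Foxp3 and Gpr83 are shown because these genes gave the highest member level per length and the member value furthest below 0 in the comparison of the libraries. RefSeq windows of 250 bases before to 50 bases after a start site (GRCm38.p6) were matched for 4 of the 7 genes, namely Foxp3 with 2 windows, Nrp1, Gpr83 and Ebi3, and not for Ikzf2, Ikzf4 and Lrrc32. Both windows below are on the plus strand, at chrX:7579426-7579725 for Foxp3, the upstream of its 2 windows, and at chr9:14859960-14860259 for Gpr83. Capitals mark TATAAA, the letters of a TATA box, and GGAAA, the core letters bound by NFAT factors, each on either strand (TTTATA and TTTCC on the other strand).
Foxp3: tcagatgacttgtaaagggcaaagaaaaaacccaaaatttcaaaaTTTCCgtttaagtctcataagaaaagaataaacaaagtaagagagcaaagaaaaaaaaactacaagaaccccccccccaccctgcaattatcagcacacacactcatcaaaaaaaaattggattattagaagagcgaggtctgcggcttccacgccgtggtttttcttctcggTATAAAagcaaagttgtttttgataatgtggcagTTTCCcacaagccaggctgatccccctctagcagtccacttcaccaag
Gpr83: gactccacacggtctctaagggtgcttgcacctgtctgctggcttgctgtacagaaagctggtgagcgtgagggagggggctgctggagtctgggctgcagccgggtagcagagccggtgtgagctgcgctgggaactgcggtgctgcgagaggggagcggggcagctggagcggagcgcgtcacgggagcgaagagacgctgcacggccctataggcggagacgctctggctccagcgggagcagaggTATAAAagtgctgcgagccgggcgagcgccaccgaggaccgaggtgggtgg
The windows differed in base composition, with 40.7% G and C for Foxp3 and 67% for Gpr83, beside a median of 52.7% over all 32851 windows. TATAAA was found in both windows and in 13.6% of all windows. All 4 motifs searched were picked after the letters had been seen. GGAAA was found 2 times in this Foxp3 window and 0 times in that of Gpr83, and 61.3% of all windows held it. Neither TGTGGT, a RUNX core spelling, nor GTAAACA, a forkhead core spelling, was found on either strand in any of the 5 member windows. Of all windows, 16.8% and 3.65% held them. Other spellings of these cores were not searched, so the cores themselves are not shown to be absent. These are matches of letters and not sites.

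The tables hold log2 of a normalized count plus 1, and the normalized counts summed to 68448996 in the library labelled WT Th1 and 60913079 in the library labelled KO Th1. Low values fall on even steps, so that read numbers could be rebuilt, and 3 reads correspond to 1.96 on this log2 scale in both libraries. All intervals below are 95% intervals of counting error alone (exact Poisson for a level, exact binomial for a difference), and take reads as independent.

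Foxp3 RNA was detected in both Th1 cultures, together with RNA of the other 6 genes. None of the 7 genes had fewer than 167 reads in either library. Foxp3, on chromosome X from 7573644 to 7595245 (GRCm38, plus strand), had a log2 value of 10.94 in the library labelled WT Th1 and of 11.66 in the library labelled KO Th1. These came from 2029 reads (interval 1942 to 2119) and 3356 reads (3243 to 3472), so the library labelled KO Th1 was the higher and the intervals did not overlap. Ikzf2, which encodes the Ikaros family factor Helios and lies on chromosome 1 from 69531214 to 69687245, had log2 values of 7.35 and 8.26, from 167 reads (142.6 to 194.3) and 316 reads (282.1 to 352.8). It was the least abundant member in the library labelled WT Th1 by reads, and again the library labelled KO Th1 was the higher. Ikzf4, which encodes Eos, a corepressor partner of FOXP3, lies on chromosome 10 from 128630843 to 128645991 and had log2 values of 10.42 and 10.32, from 1418 and 1320 reads. Its intervals, 1345 to 1494 and 1250 to 1393, overlapped.

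Among the surface molecules, Nrp1 (chromosome 8, 128358604 to 128503363) encodes neuropilin-1, a receptor of semaphorins and of vascular endothelial growth factor that is high on regulatory cells made in the thymus. It had log2 values of 8.27 and 8.19, from 319 reads (285 to 356) and 301 reads (268 to 337), with overlapping intervals. Lrrc32 (chromosome 7, 98489283 to 98502181) encodes GARP, which holds latent TGF-β on the surface of activated regulatory cells, and had log2 values of 9.62 and 9.23, from 812 reads (757.1 to 869.8) and 621 reads (573.1 to 671.8). Gpr83 (chromosome 9, 14860210 to 14870789), a G protein-coupled receptor gene that FOXP3 can induce, had log2 values of 10.02 and 9.62, from 1071 reads (1008 to 1137) and 816 reads (761 to 874). Lrrc32 and Gpr83 were thus lower in the library labelled KO Th1, the side opposite to Foxp3 and Ikzf2. Ebi3 (chromosome 17, 55952640 to 55957022), the chain shared by IL-27 and IL-35, had log2 values of 8.43 and 8.42, from 356 reads (320 to 395) and 353 reads (317.1 to 391.8), and a difference was not detectable at this depth.

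**Figure D1:**
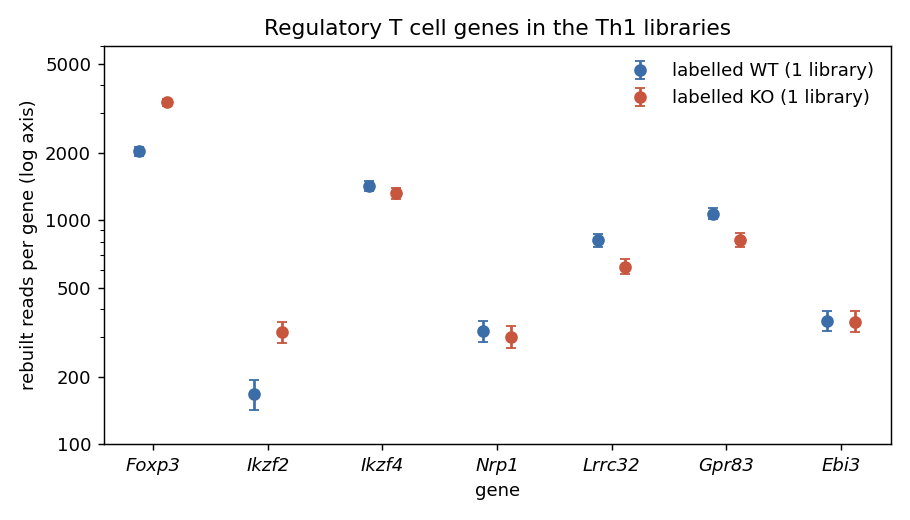
Rebuilt reads (log axis) of the 7 genes in the library labelled WT Th1 (blue) and the library labelled KO Th1 (red), 1 library each, with exact Poisson 95% intervals. Foxp3 has 2029 and 3356 reads, and the intervals of Ikzf4, Nrp1 and Ebi3 overlap between the libraries.

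A few neighbours bear on how these reads were assigned. Foxp3 has 4577 exon bases in GENCODE M21. Of these, 590 are shared with Ccdc22, 373 with Gm36995 and 266 with Ppp1r3f, all on the opposite strand. Flicr, a noncoding gene on the same strand, shares 853. The sources used here do not say whether counting used strand. Ccdc22 had log2 values of 10.23 and 9.82 and Ppp1r3f of 8.81 and 8.88, both named after their values were seen. The part of such shared bases in the values of Foxp3 was not tested, and Flicr and Gm36995 were not analysed here. Ebi3 shares 270 of its 1154 exon bases with an antisense gene. The exons shared by Ikzf2, Ikzf4 and Nrp1 with other genes come to at most 144 bases, and Lrrc32 and Gpr83 share none.

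To compare genes with each other, normalized counts were divided by the length of the longest transcript. Per kilobase, Foxp3 was the highest of the 7 in both libraries, at 511.8 in the library labelled WT Th1 and 845.5 in the library labelled KO Th1. Ebi3 followed at 298.4 and 295.5, Ikzf4 at 266.2 and 247.7, Gpr83 at 243.3 and 185.2, Lrrc32 at 171.5 and 131, Nrp1 at 84.65 and 79.68, and Ikzf2 at 17.45 and 32.89. The order was the same in both libraries. The level of Nrp1 depends on the length used, since its exons sum to 9785 bases and its longest transcript has 3645, and as a share of Cd4 per kilobase it was 1.29% and 1.57% with the transcript and 0.623% and 0.76% with the summed exons. In the library labelled WT Th1, the counting intervals of Ebi3 (268.1 to 331) and Ikzf4 (252.6 to 280.5) overlapped, as did those of Ikzf4 and Gpr83 (228.9 to 258.2), so these neighbours were not separated there. In the library labelled KO Th1 all neighbours were separated. Among the 15502 genes with at least 1 read in either library and a transcript length, the level per kilobase of Foxp3 stood at percentile 68.3 and 76.5, that of Ikzf2 at 26.3 and 31.6, and those of the other 5 between 40.3 and 59.8.

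Set beside the regulators of other helper lineages, Foxp3 stood below the Th1 factor and above that of follicular helper cells in both libraries. Tbx21, which encodes T-bet, the lead factor of Th1 cells, had 6494 normalized counts per kilobase in the library labelled WT Th1 and 5404 in the library labelled KO Th1. The level of Foxp3 was thereby 7.88% and 15.7% of that of Tbx21. Gata3, the lead factor of Th2 cells that regulatory cells also use, had 1121 and 720.4, so that Foxp3 was at 45.6% of Gata3 in the first and at 117% in the second. Their order turned between the libraries, with Foxp3 higher and Gata3 lower in the library labelled KO Th1. Bcl6, the factor of follicular helper cells, had 205.2 and 177.8, and Foxp3 was 2.5-fold and 4.75-fold above it. Against Cd4, the coreceptor gene of all helper T cells, Foxp3 was at 7.79% and 16.7% per kilobase, and Ikzf2 at 0.266% and 0.649%. In the deposited values, the ratios to Cd4 of Lrrc32 (2.61% and 2.58%) and Gpr83 (3.71% and 3.65%) were nearly equal in the libraries. Cd4 itself had log2 values of 14.32 and 13.94. With the trend with GC content (described below) removed, the log2 fold changes were -0.285 for Cd4, -0.042 for Lrrc32 and -0.522 for Gpr83. The near equality was thus not kept. Foxp3 went from 0.724 as deposited to 0.904 and Tbx21 from -0.265 to 0.081, so the gap between them narrowed. Gata3 went from -0.64 to -0.66 and Bcl6 from -0.206 to -0.204, so their gaps to Foxp3 widened.

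**Figure D2:**
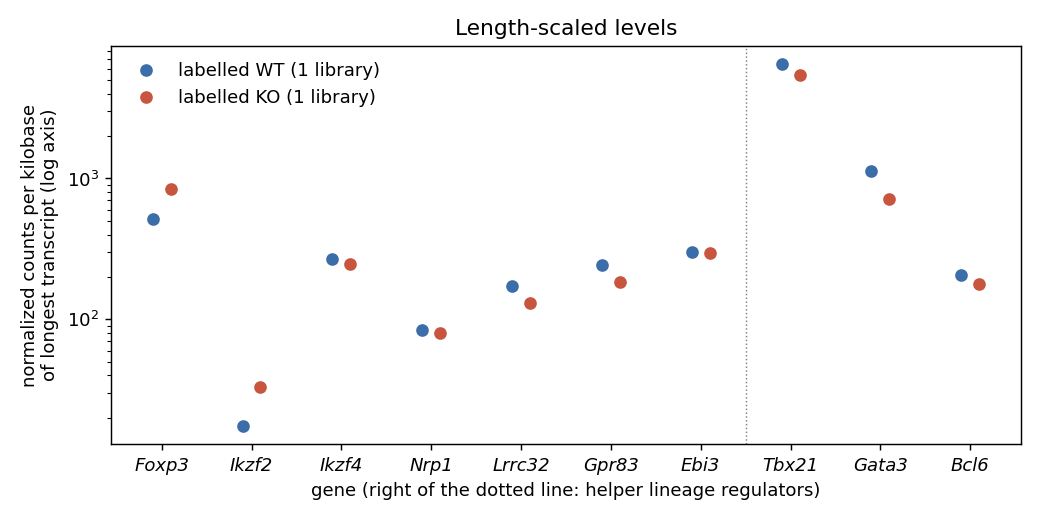
Normalized counts per kilobase of the longest transcript (log axis) for the 7 genes and, right of the dotted line, for 3 helper lineage regulators, in the library labelled WT Th1 (blue) and the library labelled KO Th1 (red), 1 library each. Foxp3 lies at 511.8 and 845.5, far below Tbx21 at 6494 and 5404, and Ikzf2 is the lowest of all 10 genes.

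No regulatory T cell sample was used here, so these levels cannot be turned into a share of cells. In bulk RNA, few cells with much Foxp3 RNA and many cells with little cannot be told apart, and neither can a change in the number of such cells and a change in RNA per cell. The members did not keep a fixed ratio to each other. Foxp3 made up 32.9% of the summed normalized counts of the 7 genes in the library labelled WT Th1 and 47.4% in the library labelled KO Th1. The other 6 genes summed to 4006 and 3600 normalized counts, a ratio of 0.899. Per kilobase, Foxp3 was 1.92-fold above Ikzf4 in the first and 3.41-fold above it in the second. Its excess over Ikzf2 was 29.3-fold and 25.7-fold. The direction of this last difference was not kept with the GC trend removed, where the log2 fold change was 0.904 for Foxp3 and 0.681 for Ikzf2.

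Between the libraries, Foxp3 and Ikzf2 were higher in the library labelled KO Th1 under each scaling tried, Gpr83 and Lrrc32 were lower under each, and Ikzf4, Nrp1 and Ebi3, lower as deposited, were higher when scaled by library totals or to Actb. No member reached 2-fold in either direction in the deposited values. The log2 fold change, labelled KO minus labelled WT, was 0.91 for Ikzf2 (interval 0.64 to 1.20) and 0.72 for Foxp3 (0.64 to 0.80), which are 1.88-fold and 1.65-fold. It was -0.39 for Gpr83 (-0.53 to -0.26) and -0.39 for Lrrc32 (-0.54 to -0.24). It was -0.10 for Ikzf4 (-0.21 to 0.0044), -0.087 for Nrp1 (-0.32 to 0.15) and -0.014 for Ebi3 (-0.23 to 0.20), and these intervals include 0. The median over the 7 genes was -0.087, beside 0 over all 24421 genes and -0.011 over the 8886 genes at 8 or more on the log2 scale in both libraries, here called well read.
Over all 24421 genes, 4.7% were at least 2-fold higher and 5.81% at least 2-fold lower in the library labelled KO Th1, and 8980 and 9048 genes were at 0 in the 2 libraries. Over the 8886 well-read genes, which hold 6 of the 7 members (Ikzf2 was below 8 in the library labelled WT Th1), these shares were 0.461% and 0.743%. At 1.5-fold, Foxp3 and Ikzf2 were past the line upward and 0 members downward. The shares past 1.5-fold were 9.6% upward and 11.4% downward over all genes, and 3.95% and 6.29% over the well-read genes. Of these 8886 genes, 157 had a larger increase than Foxp3, and 1310 had a larger decrease than Gpr83.

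**Figure D3:**
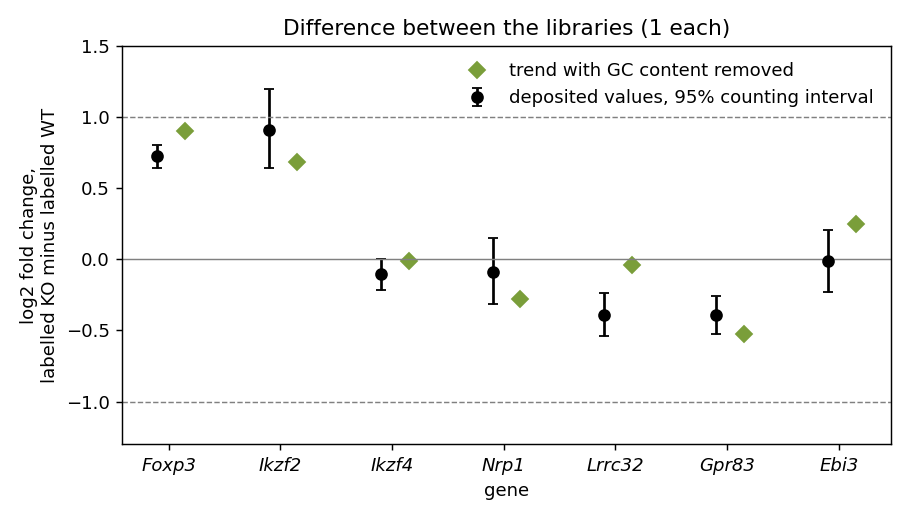
Log2 fold change (labelled KO minus labelled WT, 1 library each) of the 7 genes from the deposited values with 95% exact binomial counting intervals (black) and after removal of the trend with GC content (green diamonds). Dashed lines mark 2-fold. Foxp3 and Ikzf2 lie above 0 both ways, and Lrrc32 moves from -0.39 to -0.042.

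Transcripts richer in G and C tended to lower log2 fold changes (rho of Spearman -0.525 over 8579 well-read genes, which share these 2 libraries and are not replicates). The transcripts of the members run from 40.1% G and C for Ikzf2 to 58.3% for Lrrc32. With the trend removed, the log2 fold change of Foxp3 (55% G and C) was 0.90 and that of Ikzf2 was 0.68, and the order of these 2 genes turned. Of the 8579 genes, 52 then had a larger increase than Foxp3. Gpr83 had -0.52, Nrp1 -0.28, Lrrc32 -0.042, Ikzf4 -0.015 and Ebi3 0.24, so that the difference in Lrrc32 was nearly lost. Under scaling by the library totals the median of the well-read genes was 0.157 and Ikzf2 passed 2-fold with 1.08, and under scaling to Actb, a cytoskeletal gene, they were 0.105 and 1.03. Relative to that median Ikzf2 stood at 0.93 and 0.92, and Foxp3 at 0.74 under both. Such scalings multiply a whole library by a single factor, so distances from the median stay nearly fixed by construction and are no separate check.

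**Figure D4:**
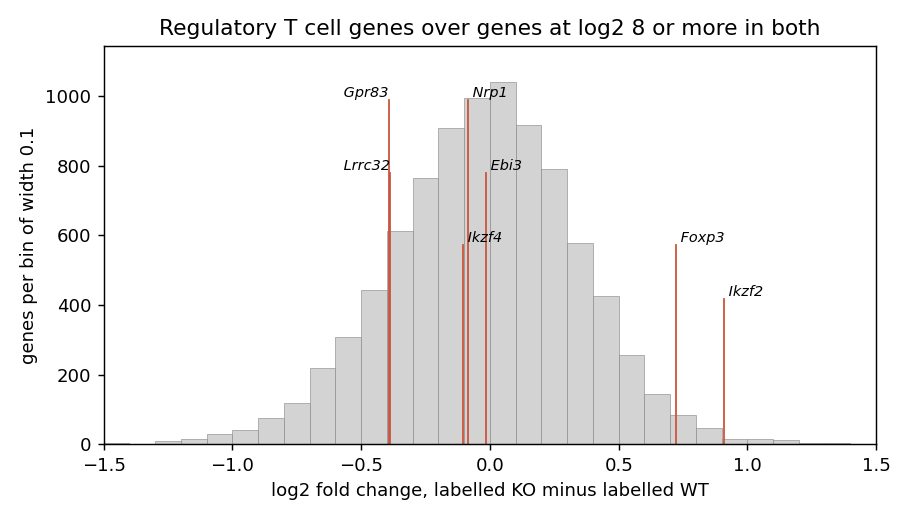
Histogram of log2 fold changes (labelled KO minus labelled WT) of the 8886 genes at 8 or more on the log2 scale in both libraries, in bins of width 0.1, with red lines at the 7 genes (Ikzf2, below 8 in the library labelled WT Th1, is not among the genes counted). Axis limits leave out the genes past 1.5 in size. Ikzf4, Nrp1, Lrrc32, Gpr83 and Ebi3 lie within the body of the distribution between -0.39 and -0.014, and Foxp3 and Ikzf2 lie in its upper part at 0.72 and 0.91.

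Other genes of the members' pathways were taken from lists. Counts past 2-fold in these lists and in the marker lists below stand beside 4.7% upward and 5.81% downward over all genes. Over the well-read genes these shares were 0.461% and 0.743%. Of 30 genes that regulatory cells share with activated T cells, 1 was at least 2-fold higher and 0 were at least 2-fold lower in the library labelled KO Th1, and the median log2 fold change was 0.070. The most abundant were Il2ra, the CD25 gene, with log2 values of 15.83 and 16.07, Il2rb, the beta chain of the IL-2 receptor, with 16.60 and 15.93, Tnfrsf4, which encodes OX40, with 15.41 and 14.99, and Tnfrsf9, which encodes 4-1BB, with 14.79 and 15.22. CD25, by whose absence the starting cells were picked, was thus among the abundant RNAs of both cultures. The gene past 2-fold was Il10, an inhibitory cytokine of regulatory and some Th1 cells, with 23 and 58 reads and a log2 fold change of 1.30 (0.61 to 2.10).
Of 26 regulators and partners of FOXP3, all well read, 0 were past 2-fold either way, beside the 0.461% and 0.743% over well-read genes. The median of the 26 was -0.21 (-0.042 when scaled by library totals). Hdac7, a histone deacetylase reported to bind FOXP3, had log2 values of 18.54 and 17.79, Satb1, a chromatin organizer that FOXP3 represses, had 17.54 and 17.56, Nfatc2, a calcium-driven partner, had 17.07 and 16.62, and Dnmt1, the maintenance DNA methyltransferase, had 16.59 and 16.34. With the GC trend removed the median of this list was -0.20.

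Within the Ikaros family, the RNAs of Helios and Eos stood below that of Ikaros. Ikzf1, which encodes Ikaros itself, had 28210 normalized counts per kilobase in the library labelled WT Th1 and 24540 in the library labelled KO Th1, and Ikzf4 was at 0.944% and 1.01% of it and Ikzf2 at 0.0619% and 0.134%. Ikzf2 was at 6.56% of Ikzf4 in the first and at 13.3% in the second. Of the 10 other family members and corepressors listed, 1 was past 2-fold, namely Ctbp2, a corepressor gene, with 25 and 9 reads and a log2 fold change of -1.38 (-2.76 to -0.33). Its relative Ctbp1, which Eos recruits, had log2 values of 15.45 and 15.06, the nucleosome remodeller gene Chd4 had 14.22 and 14.06, and the scaffold gene Sin3a had 13.54 and 13.45.

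For GARP, the cargo was abundant and the releasing integrin was scarce. Tgfb1, the latent cytokine that GARP holds, had log2 values of 15.48 and 14.98, and Furin, whose protease cuts its precursor, had 16.89 and 16.98. Itgb8, the integrin chain that frees TGF-β from GARP, had 6 and 23 reads, a log2 fold change of 1.78 (0.60 to 3.52), and its partner Itgav had log2 values of 10.12 and 10.52. Nrros, a GARP relative of myeloid cells, had 10.56 and 10.15. Of these 9 genes, 2 were past 2-fold upward and 1 downward, with a median of 0.085, and apart from Itgb8 those past 2-fold had at most 7 reads in either library.
Ebi3 needs a partner chain to make a cytokine, and both partners were scarce. Il12a, the partner in IL-35, named after its values were seen, had log2 values of 4.12 and 4.65 from 17 and 25 reads, and Il27, the partner in IL-27, had 10 and 2 reads, a log2 fold change of -1.89 (-5.55 to -0.093). The receptor chains were well read, with 11.81 and 12.19 for Il6st, 13.90 and 14.35 for Il12rb2, 12.20 and 11.97 for Il27ra and 12.32 and 11.96 for Il12rb1. Il23a, the alpha chain of IL-23, had 8 and 35 reads, a log2 fold change of 2.001 (0.99 to 3.45). In this list of 8, 1 gene was past 2-fold upward and 2 downward, with a median of 0.077.
Around neuropilin-1, Sema4a, a ligand gene linked to the stability of regulatory cells, had log2 values of 13.65 and 13.35, Vegfa had 14.80 and 14.80, Plxna1, a coreceptor gene, had 10.11 and 10.08, and the relative Nrp2 had 8.01 and 7.54. Of 9 genes, 0 were past 2-fold upward and 1 downward, which was Kdr with 11 and 5 reads (-3.01 to 0.50), and the median was -0.028. For Gpr83, the gene of the proposed peptide ligand, Pcsk1n, had 7 and 5 reads. The processing protease gene Pcsk1 had 9 and 0 reads, where a count of 0 allows up to 3 reads (a one-sided 95% limit, unlike the two-sided intervals elsewhere). Gpr171, another receptor of such peptides, had log2 values of 10.15 and 10.31, so that 0 of the 3 genes were past 2-fold upward and 1, Pcsk1, downward, with a median of -0.42.

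Markers of T cells and Th1 cells were looked up in both libraries. Having reads is no check of the Th1 label, since all 4 B cell genes had them too. All 8 T cell genes and all 8 Th1 genes had reads in both libraries, and they summed to 211500 and 194000 normalized counts for T cells and to 42530 and 51620 for Th1 cells. Ifng, the signature Th1 cytokine, had log2 values of 11.72 and 13.04, and Cxcr3, a Th1 chemokine receptor, had 8.05 and 6.82. The 7 regulatory T cell genes summed to 5969 and 6842 normalized counts.
Some markers of other cells differed beside Foxp3. All 4 B cell genes (Ms4a1, Cd79a, Cd79b and Pax5) were higher in the library labelled KO Th1, none was at 0, and they summed to 670.2 and 1061 normalized counts, a ratio of 1.58. None of the 4 was past 2-fold in the deposited values, and the list median was 0.86. The dendritic cell list summed to 73.61 and 121.9, with Clec9a, Cd209a and Siglech at 0 in both libraries and 3 genes past 2-fold upward and 1 downward. The macrophage and monocyte list summed to 686.8 and 578.1, with Adgre1 at 0 in both, Lyz2 at 34 and 2 reads and Mrc1 at 0 and 29 reads. The CD8 T and NK list summed to 828.5 and 821.3, the neutrophil list to 58.95 and 4.79, and the platelet list to 97.91 and 52.2 with Ppbp and Gp9 at 0 in both. The endothelial list summed to 20440 and 15160. In it, Pecam1 had log2 values of 14.32 and 13.89, and Cdh5 and Tek, with Kdr, had at most 11 reads in either library. Nrp1, Lrrc32 and Ebi3 are also known from dendritic, endothelial or B cells. The part of such cells in the values of the 7 genes was not tested.

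**Figure D5:**
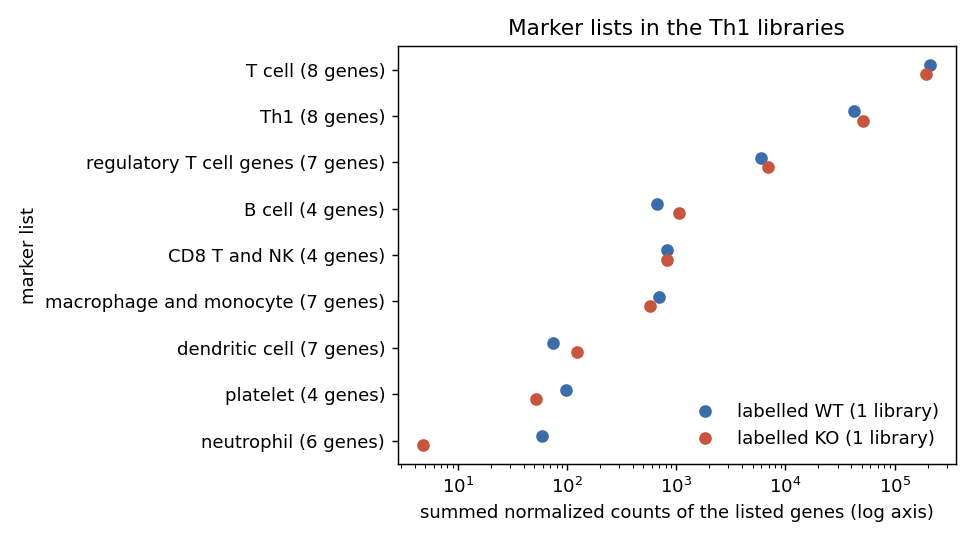
Summed normalized counts (log axis) of marker lists in the library labelled WT Th1 (blue) and the library labelled KO Th1 (red), 1 library each. The regulatory T cell genes lie at 5969 and 6842, below the Th1 list at 42530 and 51620 and above the B cell list at 670.2 and 1061. Lists differ in gene number and length, so their order is not an order of cell numbers. The endothelial list, with sums of 20440 and 15160, is not drawn.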

How the data were processed

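RNA of Th1 cultures from WT and Chi3l1 KO mice was analysed, with 1 library per genotype. The authors made libraries from polyadenylated RNA with a SENSE mRNA-Seq kit, sequenced both ends, mapped the reads with TopHat (mm10 per the submitters' processing notes), counted both unique and multiple alignments, normalized globally and compared samples with edgeR. Each deposited value was taken to be the log2 of 1 plus a normalized count, a unit inferred from the values. The annotation was not given in the sources used here.

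Read numbers were rebuilt by dividing each normalized count by the worth of 1 read, found by a grid search as 0.967 in the library labelled WT Th1 and 0.966 in the library labelled KO Th1. These summed to 70784577 and 63056678 reads. Of normalized counts between 4 and 20, 100% came out whole within 0.15 reads. Fold changes are differences of the deposited values. Transcript lengths, GC content and coordinates came from GENCODE M21 (GRCm38, the same build as mm10), which held 96.1% of genes with at least 10 reads in either library. The GC trend was the median log2 fold change in 20 bins.

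The members and lists were chosen with earlier results of these data known. Named were the 7 members, the 4 most abundant genes of each list and those past 2-fold with at least 10 reads, and 3 lineage regulators. Some marker genes under this rule are given only in the sums, and 2 listed genes are not reported here and were left out of the lists. The scripts were tested on simulated data. Scripts ran under Python 3.11.15, with scipy 1.17.1 for intervals, pandas 2.3.3 and numpy 2.4.6 for tables and matplotlib 3.10.9 for plots. Other scalings, thresholds and lengths were tried as alternatives.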

Additional observations from a re-analysis of the deposited data

How the results depend on the processing

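With 1 library per genotype, no replicate could be left out. No paired analysis was possible because each genotype has a single library. Of the members, 0 were at least 2-fold higher and 0 at least 2-fold lower, beside 4.7% and 5.81% of all genes in the deposited values. Scaling by the library totals (rebuilt reads plus 0.5) and scaling to Actb each gave 1 gene higher, Ikzf2. The median of the well-read genes itself stood at 0.157 and 0.105 there, and the shares of all genes past 2-fold under these scalings were not computed. The 1.5-fold threshold gave 2, Foxp3 and Ikzf2, where 9.6% of all genes were past it upward. The count of lower members was 0 under all 9 alternatives. The log2 fold change of Foxp3 ran from 0.72 to 0.90 over the 6 scalings and constants tried, that of Ikzf2 from 0.68 to 1.08, that of Gpr83 from -0.52 to -0.22 and that of Lrrc32 from -0.42 to -0.042, all without a change of sign. Ikzf4, Nrp1 and Ebi3 changed sign under scaling by library totals (0.064, 0.083 and 0.15) and under scaling to Actb (0.012, 0.029 and 0.10), and Ebi3 also with the GC trend removed (0.24). The normalized count of Foxp3 in the library labelled KO Th1, not divided by the worth of 1 read, was 3242 beside 3356 reads. With the summed exon length in place of the longest transcript, Foxp3 was at 6.6% of Tbx21 in the library labelled WT Th1 and at 13.1% in the library labelled KO Th1. Relative to Cd4, Nrp1 was at 0.623% in place of 1.29% and at 0.76% in place of 1.57%, and the order of the 7 genes was the same. The median over the 7 genes, -0.087, was 0.083 and 0.029 under the library total and Actb scalings. The medians of the Ikaros list (-0.038 as deposited) and the T cell list (-0.052) also turned above 0 under these scalings. They were 0.13 and 0.12 under library totals, and turned under quantile normalization too, to 0.0385 and 0.047. The causes of these changes were not tested. In the deposited values, the counting intervals of Ikzf4, Nrp1 and Ebi3 include 0.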
